A study of Mus musculus with 18 samples.

Results

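Fore footpad skin of wild-type mice was compared at postnatal day 31 (P31) and postnatal day 14 (P14), with 3 arrays at each age. These 6 arrays were chosen by their titles, which give genotype and age, from a series of 18 arrays. The series profiled hairless skin of the fore footpad from mice lacking FoxA1, a forkhead transcription factor, and from littermates of wild-type genotype, at these ages and at P10, with 3 arrays in each of 6 groups. All skin came from the C57BL/6 strain, and the labels give the sex as mixed. The design text speaks of 3 embryos per group, but every age is after birth, and each array was taken as a separate animal. Besides the 6 wild-type arrays, values are given for 3 wild-type arrays at P10 and for the knockout arrays of the same ages. The knockout allele, and any Cre line that made it, were not given in the sources used here. Skin RNA carried Cy3 on every array and was set against Cy5-labelled RNA pooled from 11 mouse cell lines and mixed with embryonic stem cell RNA. Of the 42006 probes on the array, 23553 were well above background in skin on at least 3 of the 6 arrays, and 23537 of these had values on every array and were tested.

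The mouse footpad is the main site of sweat glands in this species. Gland buds grow from the epidermis into the dermis around birth, and their coiled secretory part and duct mature over the following weeks. Skin of a young, growing animal also holds dividing keratinocytes and fibroblasts that lay down matrix, together with fat, vessels, nerves and muscle under the pad, and RNA of the whole skin mixes all of these.

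The deposited files name no gene for any probe (0 of 42006). Probe sequences were therefore matched to the RefSeq promoter windows of GRCm38.p6, which place probes lying near an annotated transcript start. In this way 500 probes were placed, 311 of them inside a single gene and on its strand, and 145 of these, for 141 genes, were tested. The 8 genes called below are shown by 30 bases of their probe, in capitals where the bases lie inside the annotated gene and in lower case where they precede its start; 2 of these probes cross the start of the gene.
Retn: TCAACAAGAAGGAGCTGTGGGACAGGAGCT
Homer2: GGCCCTCGGGTGCCTTCTGCTGCGTGGCAT
Ntng1: gaagaaaaccggggcGAAATTGCTTCGAGA
Gm1673: CGGTCTTCCCGAGTCGCCCGCGCTGCTTGT
C1qtnf3: TTCTGCTCTTTGAAACTAAGTGACAAGGAA
Fam180a: CCCAAAGCCATGAAGAAGACTCTGTATTTT
Podxl2: TCGGACGTGTTCGAGGAGGACACTCACCTG
Cfap410: gctgcgcaggcctctCCCGCTAGCCGAGTG

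The largest changes fell on probes with no gene name, and those named below are shown by their own sequence. They were picked by the naming rule and are not all of the largest changes. A tested probe of up to 40% GC with a rise of 2.75 is not among them. Probe pairs that share a run of bases report on the same or nearly the same transcript, and the run is given in capitals for the pairs Z00055704-1 with Z00023830-1, Z00025051-1 with Z00074756-1, and Z00074359-1 with Z00043609-1. The partners were chosen after their values were seen. The runs are 29, 46 and 35 bases long.
Z00023589-1: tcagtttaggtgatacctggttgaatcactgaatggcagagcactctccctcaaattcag
Z00055704-1: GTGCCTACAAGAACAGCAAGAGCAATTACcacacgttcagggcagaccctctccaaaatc
Z00023830-1: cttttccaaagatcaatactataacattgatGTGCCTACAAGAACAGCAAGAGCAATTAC
Z00027353-1: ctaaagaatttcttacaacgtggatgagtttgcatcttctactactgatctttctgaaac
Z00026847-1: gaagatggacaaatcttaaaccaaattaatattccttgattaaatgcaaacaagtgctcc
Z00074359-1: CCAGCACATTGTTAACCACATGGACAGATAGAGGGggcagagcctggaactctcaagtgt
Z00043609-1: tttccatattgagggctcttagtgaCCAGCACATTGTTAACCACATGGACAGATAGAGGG
Z00034035-1: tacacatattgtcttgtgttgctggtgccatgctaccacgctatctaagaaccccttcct
Z00025051-1: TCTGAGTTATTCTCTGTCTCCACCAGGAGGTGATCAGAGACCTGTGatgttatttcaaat
Z00074756-1: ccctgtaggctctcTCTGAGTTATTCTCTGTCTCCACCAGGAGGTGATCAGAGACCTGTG
Z00018229-1: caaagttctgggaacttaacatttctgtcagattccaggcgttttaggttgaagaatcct
Z00010932-1: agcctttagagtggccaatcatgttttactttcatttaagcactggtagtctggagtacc

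On the 6 arrays, 53.3% to 59.2% of all probes were well above background, and no skin spot was saturated. Every value below is a log2 ratio of skin over the reference, so a value compares arrays for the same probe and does not rank probes by abundance. Arrays of the same age correlated at 0.953 to 0.983 over the tested probes, and arrays of different ages at 0.907 to 0.969. The first principal component held 52.3% of the variance and put the P14 arrays between -40.8 and -16.3 and the P31 arrays between 12.6 and 58, with P31 array 2 at the far end. The second component held 20.1% and set P31 array 3, at 42.2, apart from the other 5 arrays. The P31 arrays varied more, with a median SD of 0.236 against 0.157 at P14, and 16760 probes had the larger SD at P31. P31 arrays 1 to 3 shared slide 5, while P14 array 1 lay on slide 3 and P14 arrays 2 and 3 on slide 4, so that no slide held both wild-type ages and age and slide cannot be told apart within the wild type. Slide 4 also held P31 knockout arrays 1 and 2, and their difference from P14 wild-type arrays 2 and 3 is given beside the results as the within-slide value, in which genotype changes together with age and the P14 arrays are shared with the main comparison.

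A probe was called when its Benjamini-Hochberg adjusted p in limma was under 0.05 over all tested probes and its fold change was over 1.5, the limits that the series design names. Footpad skin at P31 differed from P14 at 1915 probes, 8.14% of those tested. Of these, 721 (3.06%) were higher at P31 and 1194 (5.07%) were lower, and the median change of all tested probes was 0.03. The called rises had a median of 1.71-fold, 171 of them exceeded 2-fold, and 8 exceeded 4-fold. The called falls had a median of 1.79-fold, 362 exceeded 2-fold, and 28 exceeded 4-fold. The falls were thus more numerous than the rises at each of these sizes, an order that turned with slide as a fixed block (137 higher and 108 lower) and without P31 array 1 (1398 higher and 1343 lower). The 3 arrays of one age lay wholly on one side of the other 3 for 5849 probes (24.9%), among them 674 of the 721 called rises and 1145 of the 1194 called falls. In RNA of whole skin, fewer cells of a type and less RNA per cell cannot be told apart. A permutation of 3 against 3 arrays cannot give an exact p below 0.1, so the calls rest on the variance that limma shares over probes and over the 6 groups.

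Over the called probes the skin channel alone moved the same way, and the reference channel moved little. Both channels are part of the ratio on which these probes were called, so their medians describe the calls and are no separate check. The Cy3 signal alone was the scanner's processed signal, scaled to the 75th percentile of each array. The Cy5 signal was taken after background correction, loess and Aquantile normalization. The medians of these channels are thus on unlike scales and do not add up to the ratio. Over the called rises, the median change of the Cy3 signal alone was 1.03 and that of the Cy5 reference -0.01. Over the called falls these medians were -1.16 and -0.09. Within slide 4 the medians were 0.64 for the called rises and -0.78 for the called falls. Fitted over the 6 wild-type arrays alone, 827 probes were called (210 higher and 617 lower), and with slide as a fixed block, which links the ages only through the knockout arrays and takes genotype and slide as additive, 245 were called. Without P31 array 2, 1258 were called, with 379 higher, against 1434 without P14 array 1 (445 higher), 1289 without P14 array 3 (400 higher) and 2638 without P31 array 3 (1098 higher).

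**Figure D1:**
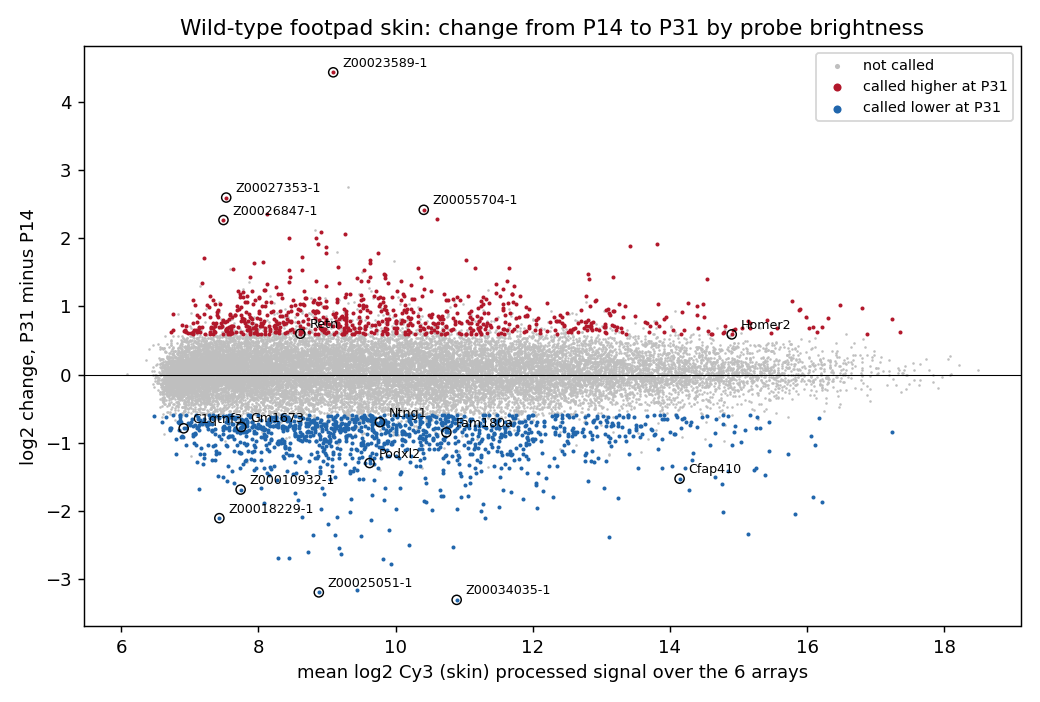
Change from P14 to P31 in wild-type footpad skin (log2, y axis) against mean skin brightness over the 6 arrays (x axis), 1 point for each of the 23537 probes tested. Brightness is the log2 Cy3 signal after background correction and normalization, not the scanner's processed signal that the axis label names. Red points are the 721 probes called higher and blue points the 1194 called lower, circles mark named genes and leading probes, and the largest rise (4.44) stands apart from all other rises.

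Calls were most frequent among probes of middle brightness. With the probes split by brightness into 4 groups of equal size, 4.62% were called among the dimmest, 10.6% and 10.2% in the middle groups and 7.1% among the brightest. Falls outnumbered rises in each group, with 159 against 113 among the dimmest and 259 against 159 among the brightest. On all 6 arrays 20784 probes were well above background, and 1765 of them were called. A further 157 probes were well above background on 0 of 3 arrays at P14 and on 3 of 3 at P31, and the reverse held for 44 probes. Such probes entered the test only through the age at which they were bright, so they had to differ, and their calls (17 rises and 21 falls) support nothing.

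Among the rises, 1 unnamed probe stood far above the rest. Z00023589-1 read 0.65, 0.68 and 0.79 on the P14 arrays and 4.94, 5.10 and 5.39 on the P31 arrays. The ages were far apart and the arrays of each age lay close together. Its change was 4.44 ± 0.23 (SE), or 21.6-fold, with an adjusted p of 2.49e-08 in limma. At P10 the wild-type arrays read 0.54, 1.05 and 0.85, close to their P14 level, and the knockout rose by 5.49 from P14 to P31. The probe was well above background on every array of each of these groups, and its change was 5.56 within slide 4 and 4.23 with slide as a fixed block.

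Z00055704-1 fell and then rose. The wild-type arrays read 4.63, 3.79 and 4.27 at P10, 2.99, 2.68 and 2.59 at P14, and 5.31, 5.24 and 4.98 at P31. P14 was thus the low point, and neither neighbouring age overlapped it. The rise from P14 to P31 was 2.42 ± 0.42 (SE), or 5.37-fold, with an adjusted p of 0.00109 in limma, and the preceding fall was -1.48 with an adjusted p of 0.0316. Both differences use the same P14 arrays. Its partner Z00023830-1 read 2.37, 1.45 and 1.55 at P14 and 3.86, 3.92 and 3.79 at P31. That change was 2.07 ± 0.41 (SE) with an adjusted p of 0.00342 in limma, so both probes that hold the shared 29 bases were called higher. The knockout changes were 2.18 and 1.83. With array weights the adjusted p of Z00055704-1 was 0.0519.

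Z00026847-1 and Z00027353-1 were measured at P31 and not well above background at P14. They entered the test only through the age at which they were bright, so their values are given as a description, with no test. Z00026847-1 read 0.30, 0.13 and 0.32 at P14 and 2.32, 1.71 and 3.55 at P31, with a bound of 4.64-fold for the rise. The bound sets the mean skin signal of the bright age against that of the dim age, after normalization of the single channel. Dim-age signals under the lowest signal well above background on their array were raised to it. Above that floor the probe's own dim signal was used, so the bound is not a detection limit. It is also open to dye bias because dyes were not swapped. The knockout showed the same pattern, with 0 of 3 arrays above background at P14, 3 of 3 at P31 and a change of 2.07.

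Z00027353-1 read 0.16, 0.04 and 0.20 at P14 and 3.56, 1.98 and 2.65 at P31 in wild type. Every P31 array was above every P14 array. The ratio changed by 2.60, or 6.04-fold. The bound from the skin channel alone, 6.75-fold, exceeded this, and neither is given as a lower limit. In the knockout it read 0.06, 0.26 and -0.07 at P31 and was well above background on 0 of 3 arrays at P31, at P14 and at P10. The knockout change was 0.12, and the within-slide value, which uses the knockout for P31, was 0.04. The difference between the genotypes in the change with age was 2.48. It is given without a test, because the probe passed the filter only through the wild-type P31 arrays. Knockout P31 array 3 lay on slide 5 with the wild-type P31 arrays, but that slide holds no P14 array, and the part of slide in this difference was not tested.

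**Figure D2:**
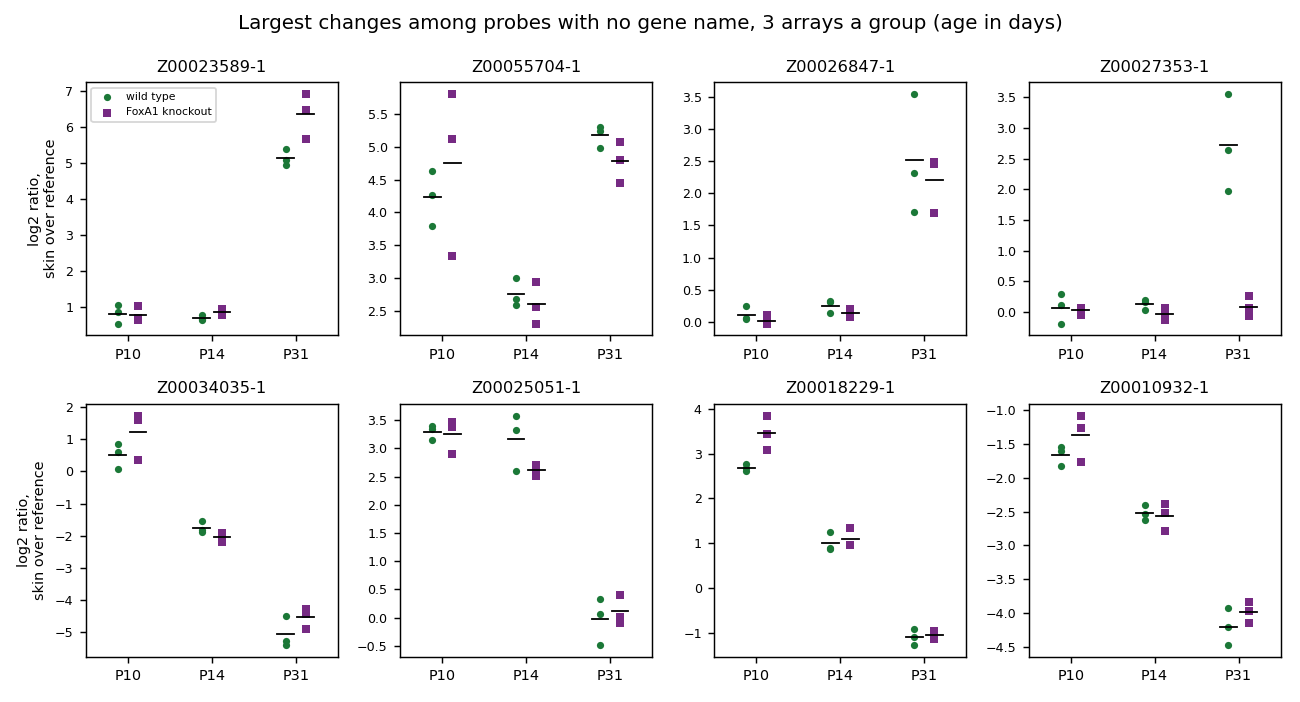
Log2 ratio of skin over reference (y axis, own range in each panel) at P10, P14 and P31 (x axis) for the 8 leading probes with no gene name. Green circles are the 3 wild-type arrays and purple squares the 3 knockout arrays of each age, black bars are group means, and the knockout lacks the P31 rise of Z00027353-1 while the other 7 probes move the same way in both genotypes.

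The deepest falls were at Z00034035-1 and Z00025051-1. Z00034035-1 read 0.84, 0.60 and 0.07 at P10, -1.54, -1.82 and -1.87 at P14, and -4.50, -5.41 and -5.27 at P31. It stepped down at each age with no overlap between ages. Its change from P14 to P31 was -3.31 ± 0.31 (SE), a 9.95-fold fall with an adjusted p of 7.25e-06 in limma, and the probe stayed well above background on all 6 arrays. The knockout changed by -2.51.

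Z00025051-1 kept its level from P10 to P14 and fell afterwards. It read 3.39, 3.35 and 3.15 at P10, 3.32, 2.60 and 3.58 at P14, and 0.34, -0.49 and 0.06 at P31. Its change from P14 was -3.20 ± 0.24 (SE), a 9.20-fold fall with an adjusted p of 9.34e-07 in limma, against -0.13 between P10 and P14. The partner Z00074756-1, which shares 46 bases, read 3.55, 2.92 and 3.71 at P14 and 0.66, -0.31 and 0.32 at P31. It changed by -3.17 ± 0.24 (SE), and the knockout changes of the pair were -2.50 and -2.81.

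Z00018229-1 and Z00010932-1 were measured at P14 and not well above background at P31, and they too are described without a test. Z00018229-1 read 1.26, 0.90 and 0.87 at P14 and -0.92, -1.28 and -1.09 at P31, with a bound of 4.23-fold for the fall. Z00010932-1 read -2.40, -2.62 and -2.53 at P14 and -4.21, -4.48 and -3.93 at P31, a change of -1.69. Each P31 array of both probes was below each P14 array. For Z00010932-1 the bound from the skin channel, 3.26-fold, slightly exceeded the 3.24-fold of the ratio, and neither is given as a lower limit. Between P10 and P14 the changes were -1.67 and -0.86. The knockout changes from P14 to P31 were -2.14 and -1.42.

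Of the 145 probes with a gene name, 8 were called (5.52%, against 8.14% of all probes tested), 2 higher and 6 lower, and the ages did not overlap for 30 (20.7%, against 24.9%). Their median change was 0. Over all probes with a gene name, the count called was 1 with slide as a fixed block and 2 with the 6 arrays fitted alone. It was 3 without P31 array 2, 4 without P14 array 1, 5 without P14 array 3 and 15 without P31 array 3. Each of the 8, Retn and Homer2 included, lost its call with slide as a fixed block, so the 1 called there was another probe. These genes are named because their probes lie near an annotated transcript start, not because of how they moved, and their shares called were close to those of all probes. That start need not belong to the named gene. The probes of Homer2, Podxl2, Fam180a, C1qtnf3 and Gm1673 lay inside the gene but outside its own promoter windows. The same held for Ltbp4, Lamb3, Ndufa9, Ndufa13 and Ndufb11, listed genes given below. The probes of Ndufa13 and Rpl26 were matched over 28 and 24 bases only. Whether a probe lies in an exon of the named gene was not checked.

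The rising genes were Retn and Homer2. Retn encodes resistin, a hormone secreted by fat cells in mice. Its probe matched 49 bases at chr8:3655771-3655819 on the plus strand, beginning 1 base after the annotated start of the gene. It read 0.68, 0.52 and 1.08 at P10, 1.67, 1.64 and 1.60 at P14, and 2.34, 2.19 and 2.18 at P31. The level was higher at each later age without overlap. The change from P14 to P31 was 0.60 ± 0.18 (SE), or 1.52-fold, with an adjusted p of 0.0351 in limma. The knockout rose by 0.97, with an adjusted p of 0.00234, and the within-slide value was 1.33. The wild-type call lay near both limits and was lost under 12 of 23 alternatives, with changes from 0.37 to 1.33. Among these, the adjusted p was 0.0696 to 0.106 without any one of the P14 arrays or of P31 arrays 1 and 2.

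Homer2 encodes a scaffold protein that links receptors and calcium channels at synapses and in secretory cells. Its probe matched 49 bases at chr7:81609876-81609924 on the minus strand. It read 3.48, 3.68 and 3.27 at P14 and 3.76, 4.38 and 4.07 at P31. The ages did not overlap, but the highest P14 array and the lowest P31 array were 3.68 and 3.76. The change was 0.59 ± 0.17 (SE), or 1.51-fold, with an adjusted p of 0.0350 in limma, and the call was lost under 13 of 23 alternatives. Without P31 array 2 the change was 0.44, without P14 array 3 it was 0.49, and without P14 array 1 or P31 array 3 it was 0.59 with an adjusted p of 0.0877 or 0.0541. The knockout change was 0.25.

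Podxl2 fell most clearly, and of the 6 falling genes its call was lost under the fewest alternatives. It encodes a sialomucin of the CD34 family, a heavily glycosylated membrane protein that can bind selectins. The whole 60-base probe matched chr6:88842740-88842799 on the minus strand. It read 2.86, 2.58 and 2.76 at P14 and 1.76, 0.92 and 1.62 at P31. Every P31 array was lower than every P14 array. The change was -1.30 ± 0.20 (SE), a 2.46-fold fall with an adjusted p of 3.88e-04 in limma, and it followed a P10 level of 2.58, 2.39 and 2.23. The knockout changed by -1.10 with an adjusted p of 0.00187, and the call was lost under 1 of 23 alternatives, with slide as a fixed block (-0.65, adjusted p of 0.393).

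C1qtnf3, Fam180a and Gm1673 fell by less. C1qtnf3 encodes CTRP3, a secreted relative of adiponectin made in cartilage and fat, and its probe lies at chr15:10978653-10978712 on the plus strand. It read 1.92, 1.78 and 2.13 at P10, 1.28, 0.92 and 0.96 at P14, and 0.61, 0.04 and 0.15 at P31. It was thus lower at each later age, and only 1 of the 3 P31 arrays was well above background. The change from P14 to P31 was -0.79 ± 0.18 (SE), with an adjusted p of 0.00941 in limma, and it was -0.68 without P14 array 1 or P31 array 2, with adjusted p of 0.0531 and 0.0527. The size depends on the treatment of dim signal, at -2.05 with the scanner's own log ratio and -2.76 with Cy3 alone. The call was lost within slide 4 (-0.48, adjusted p of 0.223), with slide as a fixed block (-0.68, 0.326), with the 6 arrays alone (0.0623) and with array weights (0.0619). The knockout changed by -0.60.

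The Fam180a probe, at chr6:35312995-35313054 on the minus strand, read 2.64, 2.74 and 2.14 at P14 and 2.09, 1.26 and 1.64 at P31. P31 array 1 lay just under the lowest P14 array. The change was -0.85 ± 0.21 (SE) with an adjusted p of 0.0148 in limma, and the adjusted p was 0.062, 0.0577 and 0.0869 without P14 array 1, P14 array 2 and P31 array 2. The Gm1673 probe, at chr5:33983515-33983574 on the plus strand, read -0.05, -0.06 and 0.44 at P14 and -0.52, -0.97 and -0.48 at P31, without overlap. Its change was -0.77 ± 0.17 (SE) with an adjusted p of 0.00702 in limma. The knockout changes of these genes were -0.76 and -0.40. With slide as a fixed block both calls were lost, with changes of -0.16 for Fam180a and -0.49 for Gm1673 (adjusted p of 0.914 and 0.531), as they were with the 6 arrays alone (0.104 and 0.0798), and within slide 4 Fam180a changed by -0.75 (0.0701).

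Ntng1 and Cfap410, whose probes cross the annotated start of the gene, were carried by fewer arrays. Ntng1 encodes netrin-G1, a membrane-anchored protein of axons. Its probe at chr3:110143430-110143489 on the minus strand read 3.75, 3.35 and 3.37 at P14 and 2.44, 2.97 and 2.97 at P31. The change was -0.70 ± 0.21 (SE) with an adjusted p of 0.0363 in limma. P31 array 1 was lower than the other P31 arrays, and without it the change was -0.52 with an adjusted p of 0.109. The call was also lost without P14 array 1 (0.145), P14 array 3 (0.0684) or P31 array 2 (0.0518), and under 10 of 23 alternatives in all, with -0.12 under slide as a fixed block and -0.34 within slide 4.

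Cfap410 encodes a protein of cilia. Its probe at chr10:77978615-77978674 on the plus strand read 1.24, 1.27 and 1.96 at P14 and -0.25, -1.07 and 1.19 at P31. P31 array 3 was thus just under the lowest P14 array while P31 array 2 was far below it. The SD was 1.14 at P31 and 0.41 at P14. The change was -1.53 ± 0.42 (SE) with an adjusted p of 0.0231 in limma. It was -1.02 without P31 array 2, with an adjusted p of 0.13, and the adjusted p was 0.109 without P14 array 3 and 0.0505 without P31 array 1. The call was lost under 8 of 23 alternatives, with an adjusted p of 0.462 under slide as a fixed block. The knockout changed by -0.07, the within-slide value was -0.32, and knockout P31 array 3, on slide 5 with the wild-type P31 arrays, read 1.11.

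**Figure D3:**
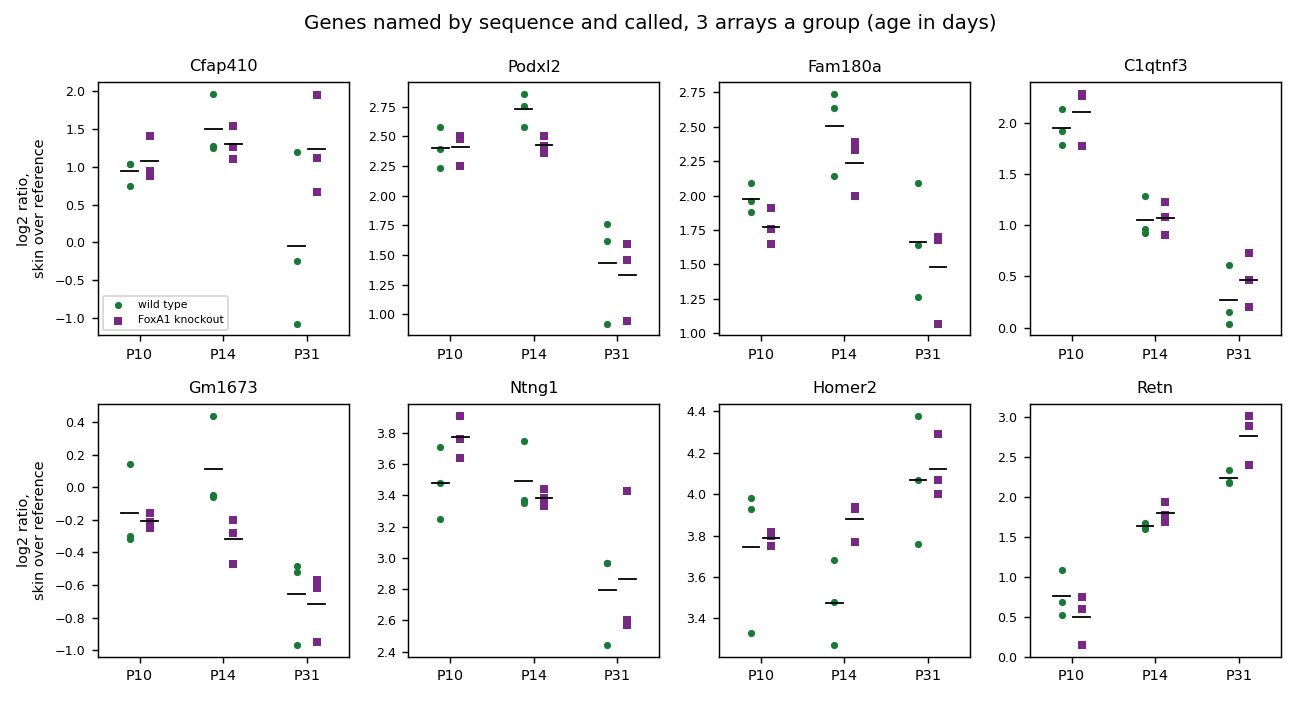
Log2 ratio of skin over reference (y axis, own range in each panel) at P10, P14 and P31 (x axis) for the 8 genes named by sequence and called. Green circles are the 3 wild-type arrays and purple squares the 3 knockout arrays of each age, black bars are group means; Retn is higher at each later age in both genotypes, and Cfap410 falls at P31 in wild type with 1 array near the P14 level.

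In promoter windows of RefSeq, running from 250 bases before to 50 bases after a start, the 8 called genes had 11 windows. The letters GGGCGG, searched on both strands, were in 5 of the 8 windows of falling genes (62.5%) and in 1 of the 3 of rising genes, against 35.7% of all 32851 windows. CCAAT was in 2 of the 8 and 0 of the 3, against 37.4% of all windows. TATAAA was in 1 of the 8 and 1 of the 3, against 13.6%. With 11 windows from 8 genes these shares describe the windows only.

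The gene lists could be read only where a member was placed. Over 34 lists, 10 members of 6 lists were tested, and Retn, from the list of fat cells and lipid synthesis, was the only one called, a share that 10 genes cannot set apart from the 8.14% of all probes. Ltbp4, which holds latent TGF-beta in the elastic fibre matrix, read 1.03 ± 0.13 (SD, n = 3) at P14 and 0.48 ± 0.34 at P31. Its ages did not overlap and its adjusted p in limma was 0.0300, but its change of -0.55 was under the fold limit. Lamb3, a laminin chain of the epidermal basement membrane, changed by 0.22 with an adjusted p of 0.235. The proteasome activator Psme2 changed by 0.20 (0.293 in limma).

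Members of the respiratory chain and the ribosome did not pass the test. Ndufa9 changed by 0.05, Ndufa13 by -0.01 and Ndufb11 by -0.40, with adjusted p of 0.788, 0.976 and 0.206 in limma. Rpl10a changed by -0.15, Rpl26 by -0.13 and Rpl38 by 0.30, with adjusted p of 0.663, 0.600 and 0.415. A second Rpl38 probe, sharing bases with the first, changed by 0.19. Foxa1, Best2 and Slc12a2, the genes behind the series title, were not placed, nor were the listed markers of sweat gland, differentiated epidermis, hair, pigment cells, skeletal muscle, nerve, vessel, red blood cells, macrophages, lymphocytes and mast cells. Acta2, an actin of smooth muscle and myoepithelial cells, was placed but was not among the tested probes. Levels of all these genes were not analysed here, and the tissue label was not checked against markers.

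Probe sequences carry some information without a gene name. Codons around the active serine of trypsin-like proteases, found on 2 probes in the forward direction and on 0 in the reverse, marked Z00076669-1 and Z00073950-1. Codons of the DNA-contacting helix of homeobox proteins, found on 5 probes forward and 0 in reverse, marked 2 tested probes, Z00026180-1 and Z00024942-1. The pattern is in capitals in each sequence.
Z00076669-1: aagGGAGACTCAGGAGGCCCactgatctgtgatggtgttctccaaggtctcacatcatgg
Z00073950-1: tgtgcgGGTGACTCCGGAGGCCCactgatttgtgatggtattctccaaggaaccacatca
Z00026180-1: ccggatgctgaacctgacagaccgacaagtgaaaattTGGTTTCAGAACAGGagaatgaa
Z00024942-1: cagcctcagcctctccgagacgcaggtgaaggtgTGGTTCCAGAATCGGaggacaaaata

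Z00076669-1, of the protease pattern, read 0.13, 0.07 and 0.07 at P14 and 0.76, 0.27 and 1.15 at P31. The P14 arrays were nearly equal and every P31 array was above them. Its change was 0.64 ± 0.16 (SE) with an adjusted p of 0.0172 in limma, after -0.42, -0.64 and -0.55 at P10, and it was 0.72 in the knockout. Without P31 array 3 the change was 0.43 with an adjusted p of 0.052, and without P14 array 3 the adjusted p was 0.0579; with slide as a fixed block it was 0.197 and with the 6 arrays alone 0.154. Z00073950-1 changed by 0.59 ± 0.28 (SE) and was not called (adjusted p of 0.172 in limma), with overlapping ages. Z00075833-1, which shares 52 bases with Z00073950-1, changed by 0.67 with an adjusted p of 0.0779, and the knockout changes of these overlapping probes were 0.95 and 1.00.

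The homeobox probe Z00026180-1 read 0.64, 1.28 and 1.63 at P14 and 2.25, 2.13 and 1.70 at P31. The lowest P31 array was close to the highest P14 array. Its change was 0.84 ± 0.25 (SE) with an adjusted p of 0.0357 in limma. The knockout changed by -0.26 and the within-slide value was -0.09, the opposite sign, knockout P31 array 3 on slide 5 read 0.95, and the call was lost under 12 of 23 alternatives. Without P14 array 1 the change was 0.57 with an adjusted p of 0.171, and the adjusted p was 0.0577 without P14 array 2, 0.0847 without P31 array 1 and 0.117 without P31 array 2. The other homeobox probe, Z00024942-1, changed by -0.16 with an adjusted p of 0.382. Codons for the linker between zinc fingers were on 6 tested probes, and 0 of them were called, with changes from -0.41 to 0.45. A run of 6 GGN codons, each followed by a pair of other codons, as in collagens but also in other glycine-rich sequence, was on 3 tested probes, and 0 were called, with changes from -0.28 to 0.52. A repeat of cornified envelope proteins was on 10 tested probes, 0 of them called, but it was found as often in reverse (11 probes) as forward (12). With 8.14% of all probes called, counts of 0 among so few probes show nothing about them.

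Short words found near transcript ends were also counted. AATAAA, the polyadenylation signal, was on 11.4% of the probes called lower and on 6.93% of those called higher, against 8.03% of all tested. ATTTA, the core of AU-rich elements, was on 7.54% and 8.88%, against 7.14%. Over all probes of the array, AATAAA was on 2911 forward and 1413 in reverse. ATTTA was on 3044 forward and 3380 in reverse, so its shares describe the letters only. Mean GC content was 45.4% for the falls, 42.8% for the rises and 45% for all tested probes. Among probes of up to 40% GC, 3.95% rose and 4.64% fell, and among those over 50% GC, 1.78% rose and 5.18% fell.

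Overlapping probes served as a repeat measurement within an array. A shared run of at least 25 bases joined 719 pairs of tested probes, and the median difference of their log2 changes was 0.0544. At least 1 probe was called in 82 pairs, both in 57, and the sign was the same in 81 of the 82. The pairs share the RNA and the array, so they check the probe and not the animals.

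The knockout arrays measured the same ages in other animals. In the knockout too, no slide held both ages, with P14 on slide 3 and P31 on slides 4 and 5. Slides 3 and 5 also held wild-type arrays of the same age, so age and slide cannot be told apart in the shared signs below. Between P31 and P14, 1414 probes (6.01%) were called in the knockout, 464 higher and 950 lower. Of the 1915 probes called in wild type, 912 were called in the knockout too (47.6% of the wild-type calls and 64.5% of the knockout calls), and 912 of the 912 had the same sign. The sign was shared at 97.8% of the wild-type falls and 84.5% of the wild-type rises, against 69.5% of all tested probes. The median knockout change was -0.67 over the wild-type falls, where wild type had -0.84, and 0.45 over the wild-type rises, where wild type had 0.78. The wild-type medians are those of probes selected for their wild-type change. The change with age differed between the genotypes at 0 probes in limma, with 1655 at an unadjusted p under 0.05 (7.03%), so the larger wild-type values were not shown to differ.

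Apart from Z00027353-1, which is described above without a test, Z00074359-1 had the smallest p for a difference between the genotypes. It read -0.27, 0.35 and 0.23 at P14 and 1.05, 1.21 and 1.16 at P31 in wild type. In the knockout it read 0.70, 0.62 and 0.24 at P14 and 0.19, 0.50 and 0.48 at P31. The wild-type P31 arrays were thus above the other 9 arrays of both ages and genotypes. The wild-type change was 1.04 ± 0.17 (SE) with an adjusted p of 6.03e-04 in limma, and the knockout change was -0.13. The overlapping probe Z00043609-1 gave 0.95 and -0.12. The adjusted p of the difference was 0.332 for both probes, so it was not called. The within-slide value of Z00074359-1, which takes P31 from the knockout, was 0.06, and knockout P31 array 3 on slide 5 read 0.48. With slide as a fixed block the wild-type change was 0.72 with an adjusted p of 0.193.

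**Figure D4:**
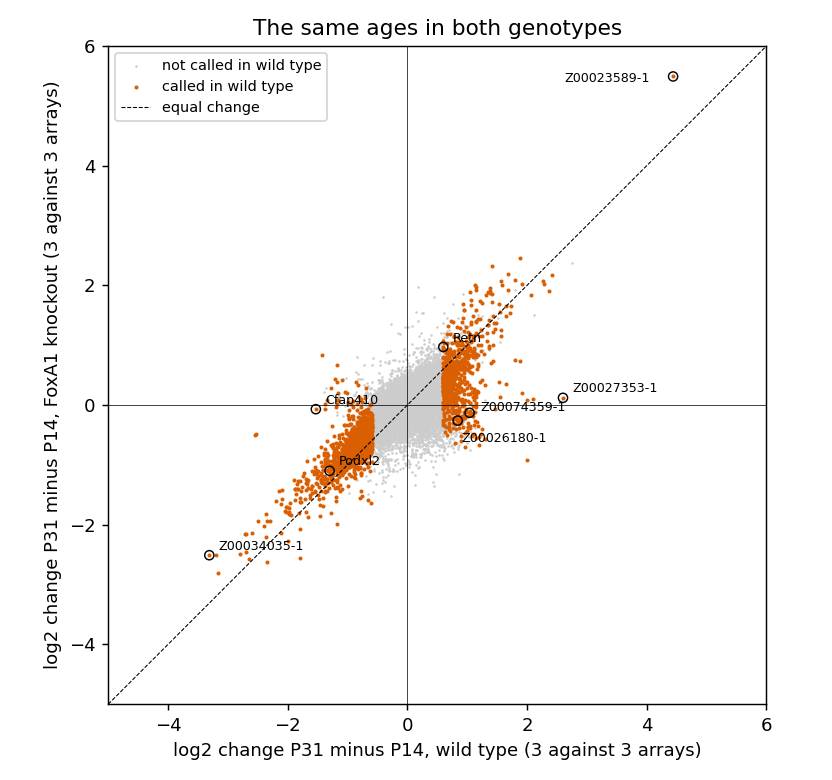
Change from P14 to P31 (log2) in wild type (x axis) and in the FoxA1 knockout (y axis), 3 against 3 arrays in each, 1 point for each of the 23537 probes tested. Orange points are the 1915 probes called in wild type, the dashed line marks equal change, and Z00027353-1, at 2.60 in wild type and 0.12 in the knockout, lies far from that line. This probe passed the filter only through the wild-type P31 arrays.

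Between P10 and P14, 1806 probes (7.67%) were called in wild type, 668 higher and 1138 lower. That comparison shares the P14 arrays with the one described here, so the calls were not set against each other. For Z00034035-1, Z00018229-1, Z00010932-1 and C1qtnf3, every P10 array was above every P14 array and every P14 array above every P31 array. By group means alone other named probes had this order too, such as Ltbp4 (1.07, 1.03 and 0.48), whose P10 and P14 arrays overlapped. Podxl2, Fam180a and Z00025051-1 changed between P10 and P14 by 0.33, 0.54 and -0.13, with adjusted p of 0.239, 0.0917 and 0.730 in limma, before their falls at P31.

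**Figure D5:**
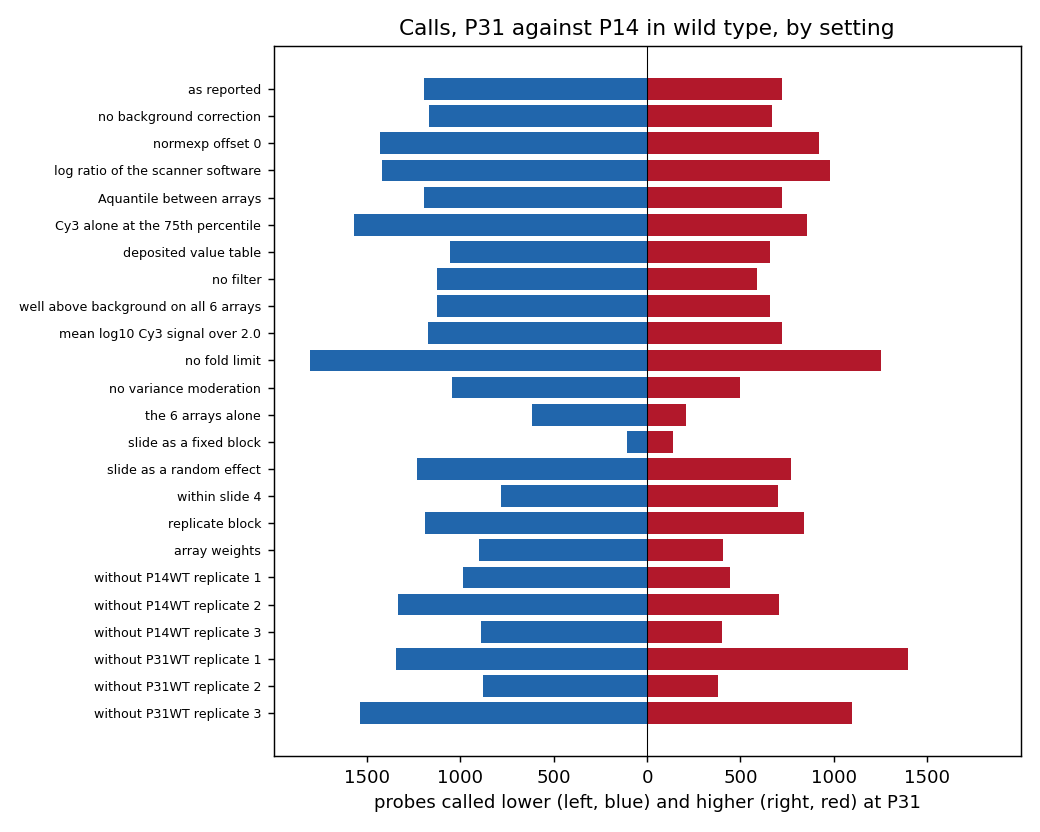
Number of probes called lower (blue, left) and higher (red, right) at P31 against P14 in wild type (x axis) as reported and under each of 23 alternatives (y axis). Most settings give totals between 1258 and 2741, and the smallest totals come with slide as a fixed block (245) and with the 6 arrays fitted alone (827).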

How the data were processed

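Skin RNA was hybridized to 2-colour Agilent arrays (NIA Mouse 44K v3.0), with skin in Cy3 and the reference in Cy5 and no dye swap, per the labels. The deposited scanner files come from Agilent Feature Extraction 9.5.1.1, per the file headers, and hold spot brightness, local background and processed signals as intensity in both channels. They also hold the log10 ratio of reference over skin, per the file headers, and other values, marks of 0 or 1 per spot. The authors also deposited a value table in log10 units, which followed the scanner log ratio with a slope of 1 after centring and has column medians of 2.42 to 2.48; the origin of its constant per probe is unknown.

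Spot and background intensity were corrected with normexp (offset 50) and loess-normalized with limma 3.58.1 (R 4.3.3), and ratios were expressed as log2 of skin over reference. Probes well above background on at least 3 of the 6 arrays were kept, and 16 with missing values were left out. Linear models with 6 group means over all 18 arrays (12 residual degrees of freedom) gave moderated, two-sided p values, adjusted by Benjamini-Hochberg. The p values rest on the spread between the 3 arrays within a group, pooled over all 6 groups and moderated over probes. They do not measure the spread of the compared ages alone, and the number of arrays limits the precision. The script was tested on simulated data.

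The members, gene lists, codon patterns and naming rule were chosen with earlier results of these data known. The rule named the 15 largest rises and falls among genes, listed genes, and at most 2 unnamed probes in each direction by size, 2 by bound and the 2 of smallest p for a difference between genotypes. Its match to proteins could not be used. Probes were instead placed by exact or near-exact sequence (at least 20 bases at a window edge, up to 2 mismatches in 30 bases or more), a step added after values were seen. Motif-bearing probes and overlap partners were named besides. The alternatives covered background correction, normalization, channel, filter, fold limit, variance moderation, slide, replicate block, array weights and left-out arrays. For the filter on mean log intensity, base 10 was taken, since the design names none.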

Additional observations from a re-analysis of the deposited data

How the results depend on the processing

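Of 23 alternatives, 19 kept the total of 1915 calls within 1.5-fold, among them slide as a random effect (2004; slide correlation of -0.0182). No fold limit gave 3063 (1255 higher, 1808 lower), the 6 arrays alone 827 (210 and 617) and slide as a fixed block 245 (137 and 108), of which 156 were among the 1915. Within slide 4, 1483 were called, with 782 lower, and array weights gave 404 higher. Leaving out 1 array gave 1258 to 2741 in total, 379 to 1398 higher and 879 to 1540 lower. Without the P31 arrays in turn the totals were 2741, 1258 and 2638. The share of higher calls was 37.7%, and it was 25.4% with the 6 arrays alone, 55.9% with the fixed block, 47.3% within slide 4 and 51% without P31 array 1. The knockout calls fell from 1414 to 82 with the fixed block. The difference between genotypes was called at 1 probe, Z00027353-1 (which passed the filter only through the wild-type P31 arrays), without background correction, with the scanner log ratio and with Cy3 alone, at 1 other (Z00067327-1) with the fixed block, and at 1 other (Z00077295-1) with the replicate block. Z00026180-1 reversed within slide 4 (-0.09). The 19 named called probes kept their calls in 349 of 428 settings and lost them in 78 besides that reversal. Among the 349 are 22, 21, 21 and 22 settings of Z00026847-1, Z00027353-1, Z00018229-1 and Z00010932-1. Those probes entered the test only through the age at which they were bright, so their kept calls support nothing. Replicate numbers share only a number: same-numbered arrays had deviations correlated at -0.126, 0.533 and 0.305, and the replicate block gave 2032 calls. Aquantile leaves the ratio unchanged by construction. For Rpl38, the one listed gene with several probes, the median gave 0.25 against 0.30. Where a result moved, the cause was not tested. Age and slide cannot be told apart within either genotype, and the fold changes of dim probes depend on how dim signal is treated.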
